A study of Mus musculus with 6 samples.

Results

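Sox9, Sox8, Wt1, Dmrt1, Gata4, Nr5a1, Nr0b1, Wnt4, Foxl2 and Rspo1 set and keep the identity of the supporting and steroid-making cells of the gonad, and their RNA was followed in mouse testis with and without a deletion of H3t. The 10 genes were taken by symbol from a table of 54100 genes, and each symbol matched 1 gene. They were chosen by what they do and by their counts in this same comparison, which were already known, so every value of a member in the 2 groups is given as a description, without a test. A filter on low counts left 17038 genes for testing, 9 of the 10 among them. Wnt4 passed that filter only through the deletion libraries, and Foxl2 did not pass.

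Bulk RNA-seq libraries were made from the RNA of testis cryosections. Of 6 libraries, 3 were wild-type (WT) and 3 carried an H3t deletion. H3t, now named H3f4, encodes a form of histone H3 that male germ cells make. The labels name tissue and genotype and give neither strain, age nor zygosity. The series concerns Leydig cells in testes in which spermatogenesis is disrupted. Sequencing depth was close, with 8037826 to 10702930 counts per WT library and 8315960 to 8988520 per deletion library. The deleted gene checked the labels, with 390, 571 and 356 counts of H3f4 in WT and 0 in each deletion library. Most genes differed between the groups, and 38.4% of those tested passed a false discovery rate of 0.05 as higher and 46.1% as lower, with a median log2 fold change of -0.19 (deletion minus WT). Levels are given as CPM, counts scaled to a common library size, after TMM scaling, which sets libraries to a common scale by a trimmed mean of gene ratios.

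In the embryonic gonad, one common set of precursor cells can become Sertoli cells, the nurse cells of the testis tubule, or granulosa cells of the ovarian follicle. SRY switches on Sox9, which with Sox8, Dmrt1, Wt1 and Gata4 directs and maintains the Sertoli fate, while secreted WNT4 and RSPO1 act through beta-catenin, and FOXL2 in the nucleus, on the ovarian side. Nr5a1 encodes SF1, the nuclear receptor that drives steroidogenic genes in Leydig cells and also acts in Sertoli cells, and Nr0b1 encodes DAX1, a receptor without a DNA-binding domain that restrains SF1.

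The sequence just upstream of a gene start was available for 5 of the 10 members, Sox8, Nr0b1, Wnt4, Foxl2 and Rspo1, as 300-base RefSeq windows on GRCm38.p6 that run from 250 bases before the start to 50 after it. Of these, 3 are shown, because they run from the most to the fewest CG pairs among the 5 and belong to members with different counts. Each is printed 5′ to 3′ on the strand of the gene and ends 1 base before the GENCODE start. In the first and second, capitals mark CG pairs, the sites of DNA methylation in mammals, and in the third they mark a TATAAA motif.
Wnt4, chr4:137277385-137277488, plus strand: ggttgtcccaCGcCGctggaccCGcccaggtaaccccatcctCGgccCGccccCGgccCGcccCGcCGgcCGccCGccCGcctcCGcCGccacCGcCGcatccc
Rspo1, chr4:124986180-124986429, plus strand: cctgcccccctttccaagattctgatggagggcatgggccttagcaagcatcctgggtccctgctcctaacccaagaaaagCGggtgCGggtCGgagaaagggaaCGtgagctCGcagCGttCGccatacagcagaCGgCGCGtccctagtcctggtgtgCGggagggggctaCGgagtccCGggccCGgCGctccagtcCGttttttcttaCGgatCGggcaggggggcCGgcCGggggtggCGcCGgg
Nr0b1, chrX:86191525-86191763, plus strand: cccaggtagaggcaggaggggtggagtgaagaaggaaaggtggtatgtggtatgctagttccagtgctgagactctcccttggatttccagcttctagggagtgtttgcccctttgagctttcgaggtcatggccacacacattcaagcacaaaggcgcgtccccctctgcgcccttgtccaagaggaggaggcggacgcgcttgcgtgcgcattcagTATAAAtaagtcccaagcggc

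The Wnt4 window was the richest of the 5 in CG pairs. Its 300 bases held 51 of them at a GC content of 84.3%, and 0.715% of all 32851 windows held as many. The GENCODE start of Wnt4 (137277489) lies inside this window, upstream of the RefSeq start (137277635). The 104 bases before the GENCODE start, printed above, held 16 of the 51 pairs, and the rest of the window lies within the GENCODE gene. Rspo1 had 29 pairs (12.9% of windows held as many), Foxl2 27 (15.5%), Sox8 21 (24.8%) and Nr0b1 14 (36.3%), against a median of 7 over all windows. Both strands were searched for exact strings of letters bound by NR5A, GATA, SOX and TCF/LEF factors, and for the GC box and TATAAA. Letters bound by WT1, DMRT1 or FOXL2 were not searched for. The letters AAGGTCA, bound by NR5A receptors, were in 4.72% of all windows and in none of the 5. For GATA factors the search used AGATAA, which 11.2% of all windows held and the 5 did not. Those of SOX factors, AACAAT, were in 10.7% of all windows and again in none of the 5. TTCAAAG, read by the TCF and LEF partners of beta-catenin, was in 5.14% of all windows and not in these. The GC box GGGCGG, in 35.7% of all windows, occurred 2 times on the gene's strand and 6 times on the other in the Wnt4 window, and 2 times each in those of Sox8 and Foxl2. TATAAA, in 13.6% of all windows, was found only in that of Nr0b1 among the 5, from 32 to 27 bases before the RefSeq start. Methylation and binding data were not used here, and a match or its absence says only which letters the window holds.

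Sox9, Sox8, Wt1 and Dmrt1, the transcription factors of the Sertoli side, were all higher in the deletion, by 5.9-fold for Sox9, 4.09-fold for Sox8, 3.81-fold for Wt1 and 2.62-fold for Dmrt1. Library values of the groups did not overlap for any of these 4 genes, as they did not for 85.9% of all genes tested. A larger share of a cell type and more RNA per cell cannot be told apart in bulk tissue, so each value describes the section as a whole.

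Sox9, the factor that SRY switches on to start Sertoli development (GRCm38 chromosome 11, 112782224 to 112787760, plus strand), had 36.4, 33.6 and 30.3 CPM in the WT libraries and 188, 195 and 209 CPM in the deletion libraries, each in the order of replicates 1, 2 and 3 that is kept throughout. Every deletion library was far above the highest WT library, and replicates lay close together. The WT mean of 33.4 ± 3.06 CPM compared with 197 ± 10.4 CPM in the deletion (SD, n = 3 each), a log2 fold change of 2.56 (SE 0.10). Of all genes tested, 7.42% had a larger increase.

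Sox8, a close relative of Sox9 that backs it up in the testis (chromosome 17, 25565892 to 25570686, minus strand), had 27.9, 26.5 and 30.2 CPM in the 3 WT libraries. The deletion libraries had 120, 107 and 119 CPM, again with no overlap. Its log2 fold change was 2.03 (SE 0.11), and 14.7% of tested genes had a larger one. Sox8 shares 329 bp of exon with Cerox1 on the opposite strand and 8.99% of its 50-base words with other genes. Cerox1 itself had 13, 8 and 21 counts in WT and 42, 31 and 56 in the deletion, few beside the 179 to 228 and 1178 to 1299 counts of Sox8.

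Wt1, a zinc-finger factor needed for the gonad to form and for Sertoli cells to keep their identity (chromosome 2, 105126529 to 105173616, plus strand), had 25.7, 29.3 and 36.8 CPM in WT and 119, 126 and 106 CPM in the deletion. The spread between replicates was wider than for Sox9, yet the lowest deletion library was well above the highest WT library. Its mean went from 30.6 ± 5.67 to 117 ± 10.2 CPM (SD, n = 3), a log2 fold change of 1.93 (SE 0.13). Wt1os, a noncoding RNA transcribed away from Wt1 on the opposite strand, had 21, 36 and 31 counts in WT and 106, 78 and 76 in the deletion. It rose 2.02-fold, with an adjusted p of 0.00399 in the edgeR quasi-likelihood fit of all genes. Counts of Wt1 per count of Wt1os were 7.86, 7.0 and 8.42 in WT and 12.1, 17.8 and 14.6 in the deletion, higher in each deletion library than in any WT library. This ratio, like those given further on, was chosen after the values were seen.

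Dmrt1, which keeps Sertoli cells from turning into granulosa-like cells and is also made in spermatogonia (chromosome 19, 25505618 to 25604329, plus strand), had the smallest difference of the 4. It had 24.4, 31.7 and 22.7 CPM in WT and 61.5, 73.8 and 72.7 CPM in the deletion. The log2 fold change was 1.39 (SE 0.14), and 25.1% of all tested genes had a larger one. Markers of undifferentiated spermatogonia moved with it. Of 8 tested, 6 rose and 1 fell, with a median log2 fold change of 1.8 and a summed level of 118.8 to 134.2 CPM in WT and 178.2 to 223.4 CPM in the deletion. Zbtb16, a transcription factor of stem and progenitor spermatogonia, was at 10.2 ± 1.76 and 52.4 ± 8.07 CPM, Id4, a mark of the stem cell state, was at 79.5 ± 3.89 and 30.0 ± 5.7 CPM, and Nanos2 was at 0 in all 6 libraries. What these cells contributed to the Dmrt1 value was not tested.

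**Figure D1:**
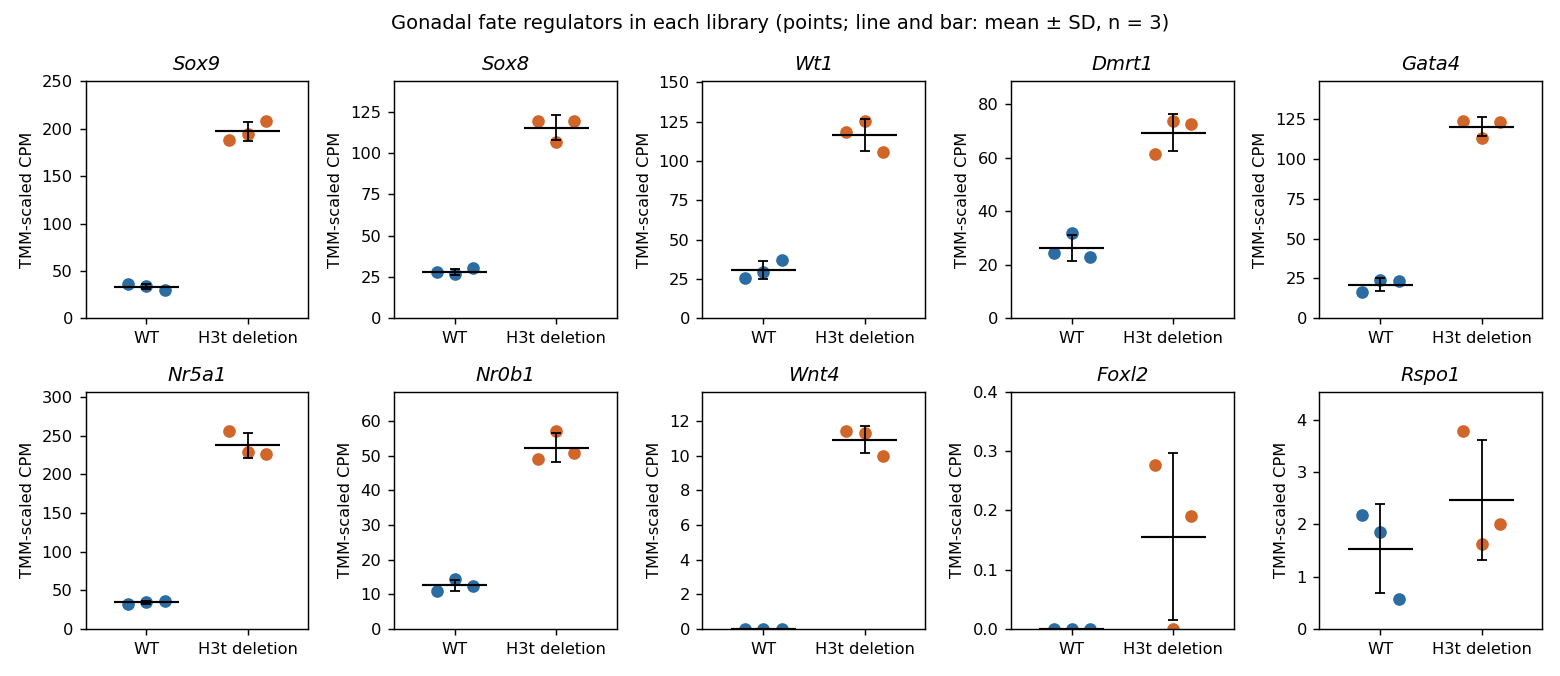
TMM-scaled CPM of the 10 members in each library, with 1 panel and 1 linear axis per gene. Points are libraries, and the line and bar are the mean and SD of 3; the groups are apart in the panels of Sox9, Sox8, Wt1, Dmrt1, Gata4, Nr5a1, Nr0b1 and Wnt4, and they overlap for Foxl2 and Rspo1.

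Gata4, Nr5a1 and Nr0b1, which act in both Sertoli and Leydig cells, were higher in the deletion too. Nr5a1 had the largest fold change of the 7 members that WT testis also held at more than 10 CPM. Gata4, a zinc-finger partner of SF1 (chromosome 14, 63198922 to 63271692, minus strand), had 16.2, 23.7 and 23.3 CPM in WT and 124, 113 and 123 CPM in the deletion. The lowest value in WT was replicate 1 and none came near the deletion libraries, and the log2 fold change was 2.5 (SE 0.13), or 5.66-fold.

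Nr5a1, the gene of SF1 (chromosome 2, 38692656 to 38714542, minus strand), had 32.7, 34.2 and 36.2 CPM in WT and 256, 229 and 227 CPM in the deletion. Replicates lay close together in both groups, at 34.4 ± 1.78 CPM and 237 ± 16 CPM (SD, n = 3). The log2 fold change was 2.79 (SE 0.10), or 6.9-fold, and 5.09% of the tested genes had a larger one. Nr5a1os, which overlaps it on the opposite strand with no shared exon, had 0, 2 and 0 counts in WT and 11, 6 and 5 in the deletion.

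Nr0b1, the gene of DAX1, lies on the X chromosome (86191764 to 86195947, plus strand) and its upstream sequence with the TATAAA motif is printed above. It had 10.9, 14.3 and 12.4 CPM in WT and 48.9, 57.0 and 50.8 CPM in the deletion. The mean was 12.5 ± 1.71 and 52.2 ± 4.22 CPM (SD, n = 3), a log2 fold change of 2.05 (SE 0.15), or 4.14-fold. The restraining partner differed by less than its target SF1. Counts of Nr0b1 per count of Nr5a1 were 0.333, 0.418 and 0.342 in WT and 0.191, 0.249 and 0.224 in the deletion, lower in each deletion library than in any WT library.

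Wnt4, the ligand that promotes ovarian development and opposes the Sertoli program (chromosome 4, 137277489 to 137299726, plus strand), was not counted in WT at all. Its counts were 0, 0 and 0 in WT and 124, 125 and 105 in the deletion. In CPM the deletion libraries had 11.4, 11.3 and 10, a mean of 10.9 ± 0.783 (SD, n = 3). With 3 counts over the WT group as the floor, 0.136 CPM, Wnt4 was at least 80.5-fold higher in the deletion. That bound was 49.2 without WT replicate 2, the deepest library, and 125.3 with no scaling factor. The floor covers counting error only. No annotated gene overlaps Wnt4, and 4.33% of its 50-base words occur in other genes.

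Foxl2, the forkhead factor that keeps granulosa cells from becoming Sertoli-like (chromosome 9, 98955288 to 98958543, plus strand), had 0 counts in each WT library and 3, 0 and 2 counts in the deletion. That is too few to compare, and no fold is given. Its opposite-strand neighbour Foxl2os had 0 counts in WT and 1, 0 and 2 in the deletion.

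Rspo1, which amplifies WNT signals by protecting their receptors (chromosome 4, 124986430 to 125009099, plus strand), was low in both groups. It had 2.18, 1.86 and 0.564 CPM in WT and 3.78, 1.63 and 2.0 CPM in the deletion, from 4 to 41 counts per library. Values overlapped, and the log2 fold change of 0.68 (SE 0.53) did not pass the threshold. Without WT replicate 3, or without deletion replicate 1, it was 0.25. It passed in 2 of 13 alternatives, those with upper-quartile scaling (1.21) and with no scaling factor (1.31).

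In all, 8 of the 9 members tested passed the threshold, all higher in the deletion, where 38.4% of all tested genes were higher and 84.5% passed in either direction. The choice of members used this contrast, so nothing is read from that count. For the 7 members from Sox9 to Nr0b1, leaving out any 1 library kept the direction and the call, with the widest ranges for Dmrt1 (1.26 to 1.55) and Gata4 (2.32 to 2.58), and other scalings gave the same direction with values from 1.22 (Dmrt1) to 3.42 (Nr5a1).

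**Figure D2:**
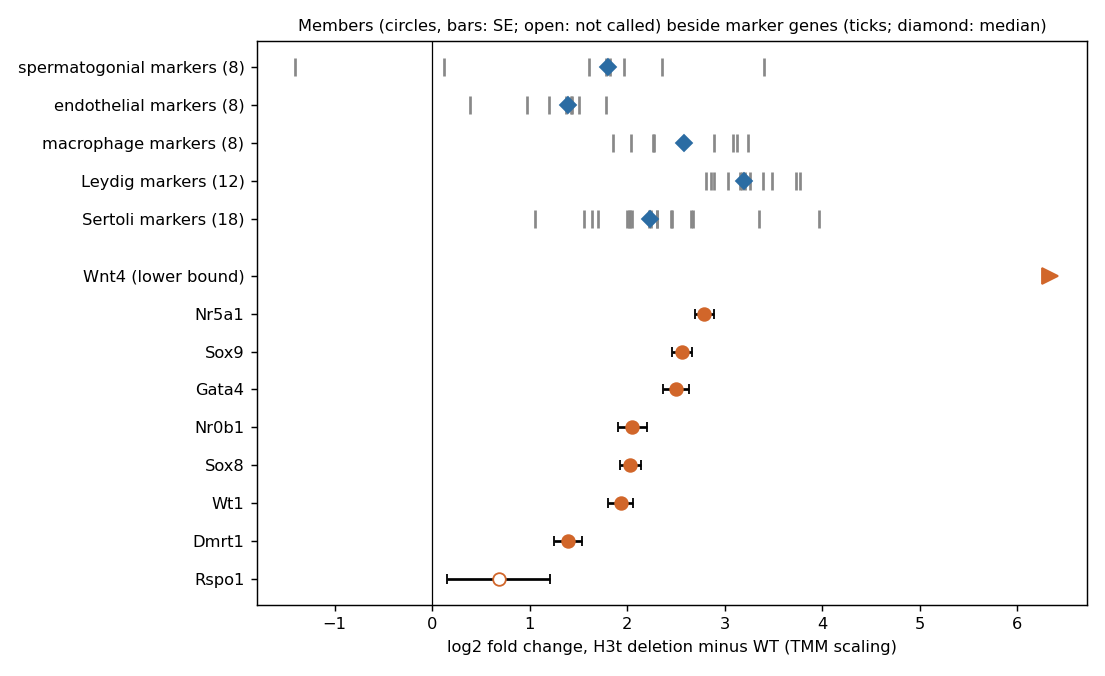
Log2 fold change of deletion minus WT for the members (circles with SE, open for Rspo1, which did not pass; arrowhead at the lower bound of Wnt4) and for single genes of 5 marker lists (ticks, with a diamond at the median). Sox9, Gata4 and Nr5a1 lie above the Sertoli median of 2.23 and below the Leydig median of 3.19, while Sox8, Wt1, Dmrt1, Nr0b1 and Rspo1 lie below both.

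Levels can be set side by side between genes only per length of transcript, here as CPM per kb of summed exons. In WT the order was Dmrt1 (10.1), Sox8 (9.04), Nr5a1 (8.1), Sox9 (8.09), Nr0b1 (6.93), Gata4 (5.39) and Wt1 (4.94). Each of these neighbours overlapped the next in its library values, so the order among them was not resolved. Rspo1 followed at 0.792, clear of Wt1, with Wnt4 and Foxl2 at 0.

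The deletion libraries gave a wider and better separated order per kb. Nr5a1 (55.9) was above Sox9 (47.7), Sox9 above Sox8 (36.9) and Sox8 above Gata4 (30.7), with no overlap at any of these steps. Gata4, Nr0b1 (28.9) and Dmrt1 (26.7) overlapped as neighbours, and Wt1 (18.8) lay below them. Wnt4, at 2.6, was above Rspo1 (1.27), and Foxl2 was last at 0.0478. Dmrt1 was nominally at rank 1 of the 10 in WT and at rank 6 in the deletion. With the length of the longest transcript instead, Wt1 had 9.9 per kb in WT and 37.7 per kb in the deletion, and Nr5a1 11.5 and 79.2. Sox8 (35.5 to 39.9 per kb) and Gata4 (33.3 to 36.5 per kb) then overlapped in the deletion. The ranks of these genes therefore depend on which transcripts are made.

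**Figure D3:**
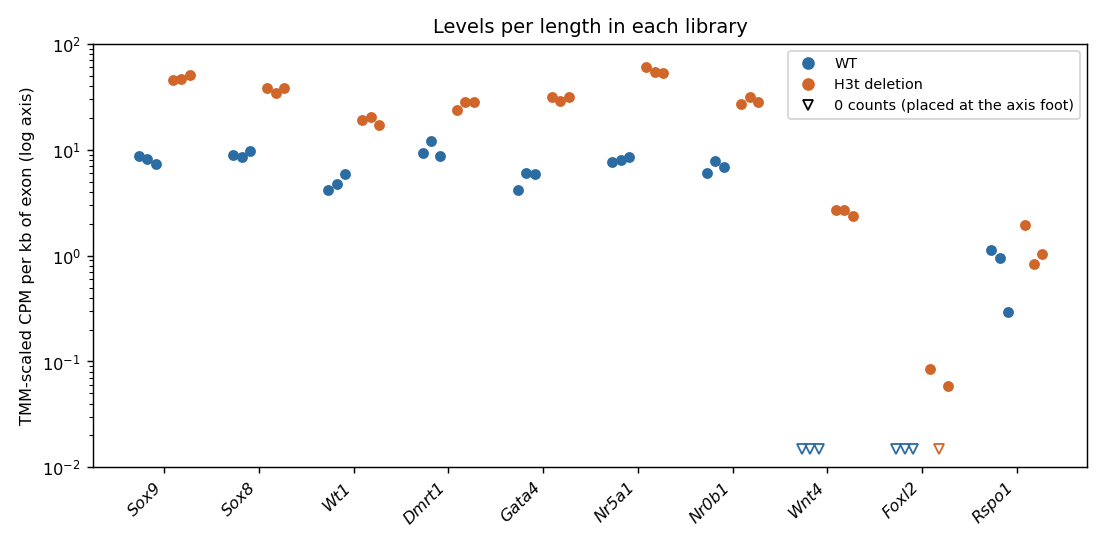
CPM per kb of summed exons on a log axis for each member and library, with triangles at the foot for libraries with 0 counts. The 7 members from Sox9 to Nr0b1 lie close together in WT and spread out in the deletion, and Wnt4 lies above Rspo1 in the deletion only.

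The members were also read within each library against markers of the cells that make them. The 18 Sertoli markers all rose, with a median log2 fold change of 2.23 and a summed level of 1061.8 to 1180.7 CPM in WT and 4799.2 to 4866.0 CPM in the deletion. Clu and Ctsl, secreted and lysosomal proteins of Sertoli cells, were the most abundant. All 12 Leydig markers rose, with a median of 3.19 and a sum of 589.9 to 634.2 and 5564.2 to 6144.6 CPM, led by Cyp17a1 and Ptgds. No marker of either list was at 0 in a whole group. Spermatid markers fell in 10 of 10 genes, from a sum of 21610.0 to 23304.8 CPM to 10.7 to 70.2 CPM, and spermatocyte markers in 9 of 10 (median -3.07). Macrophage markers rose in 8 of 8 genes (median 2.58), endothelial in 6 of 8 (1.39), peritubular myoid in 5 of 6 (1.21), and interstitial mesenchyme in 4 of 7 with 1 lower (1.95). How far these shifts account for the members' values was not tested.

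The difference of a member from the mean log2 CPM of a marker list within a library needs no scaling factor. Against the Sertoli markers, Nr5a1 was 1.28, 1.13 and 1.29 in WT and 2.01, 1.77 and 1.81 in the deletion, a gain of 0.63. Sox9 gained 0.41, from 1.43, 1.1 and 1.04 to 1.57, 1.53 and 1.69. Gata4 gained 0.37, from 0.27, 0.6 and 0.66 to 0.97, 0.75 and 0.92. With the mean of the list and a prior count of 2, the groups did not overlap for any of the 3, but this held under other settings for Nr5a1 alone (a gain of 0.46 with the median of the list and 0.48 with a prior count of 0.5). Sox9 overlapped under both (0.24 and 0.26), and Gata4 overlapped with the prior count of 0.5 (0.23).

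Dmrt1 went the other way. It was 0.86, 1.02 and 0.62 log2 units above the Sertoli markers in WT and -0.04, 0.13 and 0.17 in the deletion, a difference of -0.74 with no overlap, nor was there any with the list median (-0.91) or a prior count of 0.5 (-0.89). Sox8 (-0.12), Wt1 (-0.21), Nr0b1 (-0.1) and Rspo1 (-1.46) differed by values whose libraries overlapped between the groups. Of these 4, only Rspo1 overlapped under all 3 settings. The groups were apart for Sox8 (-0.29) and Wt1 (-0.38) with the list median, and for Wt1 (-0.36) and Nr0b1 (-0.24) with a prior count of 0.5. Against the Leydig markers, each of the 7 members from Sox9 to Nr0b1 was lower in the deletion, from -0.44 for Nr5a1 to -1.81 for Dmrt1, and Rspo1 was lower by -2.53. None of these signs changed under the 8 alternatives tried, but with the median of the Leydig list the groups overlapped for Nr5a1 (-0.3) and Gata4 (-0.56). Ratios between members gave the same order without any marker. Dmrt1 per Sox9 count was 0.671, 0.945 and 0.749 in WT and 0.327, 0.379 and 0.349 in the deletion, and Sox8 per Sox9 count was 0.765, 0.789 and 0.995 against 0.635, 0.547 and 0.572. Nr5a1 per Sox9 count overlapped, at 1.04 ± 0.15 and 1.21 ± 0.137 (SD, n = 3).

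**Figure D4:**
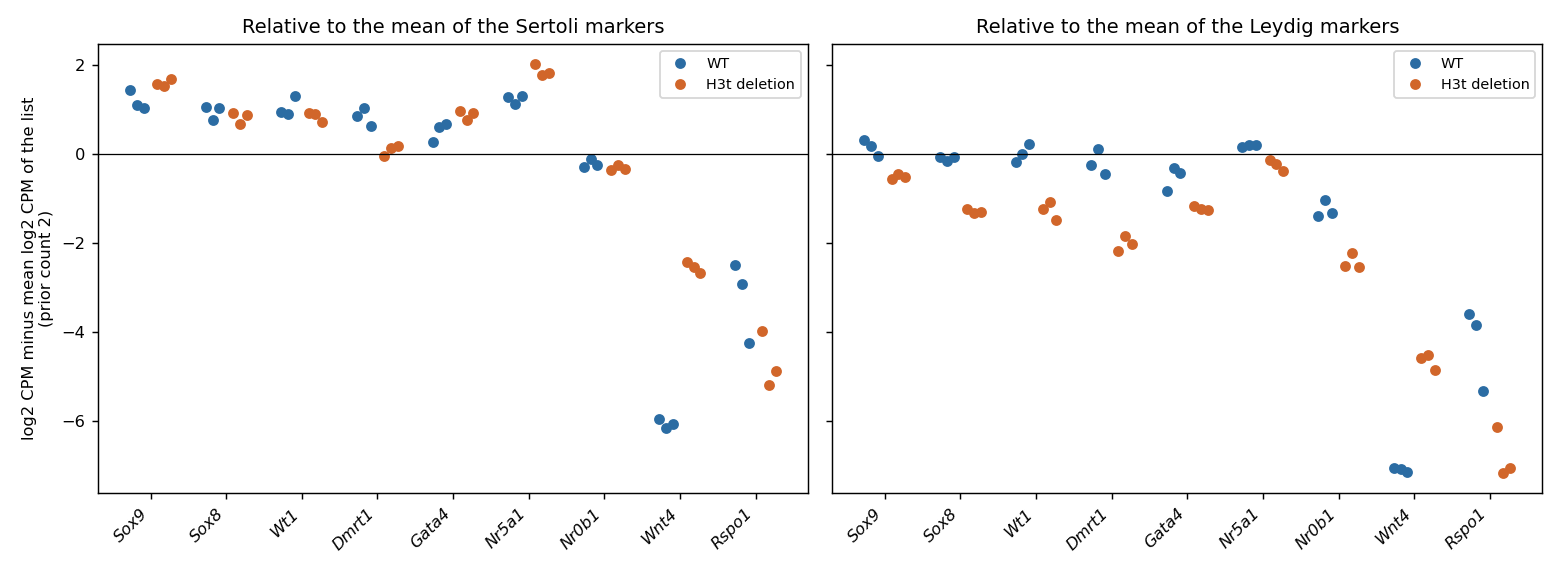
Log2 CPM of each member minus the mean log2 CPM of the Sertoli (left) or Leydig (right) markers in the same library, with 1 point per library. Nr5a1, Sox9 and Gata4 shift up and Dmrt1 shifts down against the Sertoli markers, and Wnt4 is the only member that shifts up against the Leydig markers.

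Relative to the Sertoli markers Wnt4 was 3.51 log2 units higher in the deletion and relative to the Leydig markers 2.44, values that depend on the prior count of 2 added to its 0 counts (5.33 and 4.4 with a prior of 0.5). The part of cell shares in the Wnt4 value was not tested.

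The number of genes with an on-off pattern like that of Wnt4 depended on the cut used. Over the whole table, 31 genes had 0 counts in every WT library and at least 10 in each deletion library, and 1245 had the reverse. With at least 50 counts the number was 4, namely Wnt4, Wfdc18, Hrk and Gm6089, and with at least 100 it was 2, Wnt4 and Wfdc18. The cut of 100 lies just under the lowest deletion count of Wnt4, 105. The demand for 0 counts in WT also left out genes with 1 or 2 counts in a WT library. Scin, for example, had 1, 1 and 0 counts in WT and 148, 117 and 138 in the deletion. Sections can also include the rete testis and the mesothelium over the testis, and of their markers 0 of 3 and 1 of 2 tested rose. These counts depend on which libraries are kept. Of the rete markers, 2 of 5 rose when any 1 WT library or deletion replicate 2 was left out, and of the mesothelial ones 2 of 4 when any 1 WT library or deletion replicate 1 was. Pax8, a rete factor, had 0 counts in WT and 35, 0 and 29 in the deletion. Cdh1, an epithelial cadherin, had 6, 6 and 2 counts in WT and 53, 9 and 37 in the deletion, and Cdh16 had 0 in WT and 8, 0 and 4 in the deletion. Epcam and Sox17, the most abundant markers of that list, fell (log2 fold changes of -1.21 and -2.5). Of the mesothelial list, Lrrn4 rose, with 18, 19 and 39 counts in WT and 247, 257 and 236 in the deletion, Upk3b had 1, 2 and 2 in WT and 4, 44 and 13 in the deletion, and Msln had 0, 0 and 4 in WT and 1, 16 and 0 in the deletion. The part of these cells in the Wnt4 value was not tested.

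The neighbours of Wnt4 on chromosome 4 were counted in both groups. Cdc42, a small GTPase gene whose end lies 19970 bp to the right, had 198, 285 and 163 counts in WT and 1020, 839 and 877 in the deletion, a log2 fold change of 1.54 (SE 0.14). Zbtb40, 228688 bp to the left, had 202, 278 and 195 counts and 286, 253 and 249, a log2 fold change of -0.32 (SE 0.14), or 0.31 with no scaling factor. Neither was near 0 in WT.

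Likeness to a member was measured over the 6 libraries as the distance between profiles of log2 CPM centred on their mean. The search covered 13075 tested genes that averaged 2 CPM or more. It left out the members and genes with clone names (Gm with digits, or ending in Rik), Gm6089 among them. The genes most like Wnt4 were Hrk (distance 0.551), Scin (0.756), Tnfrsf12a (1.08) and Clca3a2 (1.11), and each had at most 2 counts in any WT library. Hrk encodes a pro-apoptotic BH3 protein and Tnfrsf12a the receptor of the cytokine TWEAK. Those most like Sox9 were Iah1 (0.129), Hnmt (0.141), Clcn5 (0.146) and Tns3 (0.157), and those most like Nr5a1 were Prrg3 (0.128), P3h4 (0.141), Parp4 (0.153) and Scd2 (0.158). Ranking by Pearson correlation named 4 other genes for each of the 3 members. With only 6 libraries in 2 groups, profiles are set mostly by the size of the group difference.

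The genes around the members were read by role, from lists of textbook genes, against 38.4% higher, 46.1% lower and a median of -0.19 over all tested genes. Of 16 factors of the early gonad, 12 rose and 4 fell, with a median log2 fold change of 1.79. Nr2f2, a receptor of interstitial progenitors, rose from 18.1 ± 3.39 to 104 ± 11 CPM (SD, n = 3), and Cited2, a cofactor of WT1, rose from 22.7 ± 2.85 to 103.5 ± 2.94 CPM. Maf, a transcription factor of gonadal interstitial cells, rose with a log2 fold change of 2.67. Emx2, a homeobox gene of the genital ridge, fell by 2.7 on the log2 scale, from 74, 108 and 140 counts to 25, 9 and 38. Zfpm2, the gene of FOG2, the cofactor of GATA4, also fell, from 22.1 ± 2.81 to 10.5 ± 2.86 CPM, while Gata4 itself was higher. The Zfpm2 call was lost with no scaling factor (log2 fold change -0.44). Six4, another of the 4, had library values that overlapped between the groups (log2 fold change -1.22, edgeR adjusted p = 0.0254). It lost its call with upper-quartile scaling, with voom, and without WT replicate 2 or 3 or deletion replicate 1 or 2. In those fits 3 of the 16 fell, and with no scaling factor 2 did.

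Genes of Sertoli determination and its targets, read as 1 list, rose in 10 of 11 tested, with a median of 2.3. Of the 13 listed, 5 are also among the Sertoli markers. Ptgds, which makes the prostaglandin D2 that promotes SOX9 and is also made by Leydig cells, rose 13.2-fold, Cyp26b1, which breaks down retinoic acid, rose 4.13-fold, and Map3k4, a kinase upstream of Sry, rose 2.53-fold. Sry itself had 11, 13 and 5 counts in WT and 0 in each deletion library, too few to be tested. Fgf9, also untested, had 3, 3 and 4 counts in WT and 1, 1 and 0 in the deletion. Amh, a direct SOX9 target of the fetal testis, had 0, 3 and 0 counts in WT and 12, 17 and 19 in the deletion. Its log2 fold change of 3.35 rests on few counts. Without WT replicate 2 the WT group holds 0 counts, so no fold is given for that fit. Sox10 had a log2 fold change of -0.53 and did not pass (0.11 with no scaling factor). Without WT replicate 3 or any 1 deletion library, 1 gene of the list fell.

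Targets and partners of SF1 in steroid synthesis rose in 11 of 12 tested, with a median of 2.85. Cyp17a1, the enzyme that makes androgen precursors, rose from 129.9 ± 19.0 to 1159.5 ± 132.8 CPM (SD, n = 3). Hsd3b6 and Hsd3b1, close paralogs whose counts are less certain for that reason, rose 9.22-fold and 11.1-fold. Nr4a1, an inducible receptor of Leydig cells, fell from 173, 207 and 131 counts to 44, 52 and 88. Of the 13 genes listed, 7 are also Leydig markers. What Nr5a1 contributed to the values of this list was not tested.

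Genes listed for granulosa cells and the ovary did not move as one. Of 15 listed, 8 could be tested, and 5 rose and 3 fell. The median was 2.29, and 1.69 without WT replicate 1. Kitl, the Sertoli ligand of the receptor KIT, went from 23.0 ± 3.81 to 176.3 ± 8.77 CPM and Amhr2, the receptor of AMH, from 35.9 ± 1.29 to 132.5 ± 9.13 CPM (SD, n = 3). Fst, the activin antagonist that lies downstream of Wnt4 in the ovary, had 8, 3 and 9 counts in WT and 108, 121 and 123 in the deletion, a log2 fold change of 3.55 (edgeR adjusted p = 4.2e-07). Fst and Runx1 were singled out after their values were seen. Runx1, a granulosa factor of the fetal ovary, had 13, 5 and 6 counts and 181, 111 and 112.

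Cyp19a1, the aromatase that makes estrogen, fell from 39, 29 and 42 counts to 3, 0 and 1, a log2 fold change of -5.22 (-6.38 without deletion replicate 1). Irx5, a homeobox gene of the ovary, fell from 66, 33 and 57 counts to 6, 0 and 1 (log2 fold change -5.0, and -6.9 without deletion replicate 1). Esr2, the estrogen receptor of granulosa cells, and Lgr5, a WNT target and R-spondin receptor of the ovarian surface, had at most 6 counts and 1 count in any library.

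Among WNT ligands other than Wnt4, 6 of 18 were tested, and 2 rose, 2 fell and 2 did not pass. Wnt6 rose from 30, 66 and 58 counts to 567, 502 and 483, and Wnt5a, the main ligand of the noncanonical branch, from 30, 26 and 21 to 348, 344 and 299. Wnt3 went the other way, from 84, 150 and 123 counts to 3, 8 and 2, a log2 fold change of -5.27 (-6.0 without deletion replicate 2), and Wnt2 fell by 2.28 (-2.89 without deletion replicate 2). Wnt9a, like Wnt4, had 0 counts in every WT library, with 13, 14 and 5 in the deletion, too few to be tested. Other untested ligands went the opposite way. Wnt7a had 13, 5 and 26 counts in WT and 0 in each deletion library, and Wnt3a had 19, 11 and 12 in WT and 0, 1 and 0 in the deletion. The median of the 6 was 0.39, but -0.98 and -1.46 over the 8 tested without deletion replicate 1 or 2. In both cases 4 of the 8 fell, and 4 of 9 did without WT replicate 2 or deletion replicate 3.

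Both tested genes of ligand release rose. Wls, the carrier that takes WNT proteins to the cell surface, went from 16, 28 and 19 counts to 387, 293 and 271, a log2 fold change of 3.36 (edgeR adjusted p = 1.41e-09), and Porcn, which attaches their lipid, had a log2 fold change of 1.91. Rspo2, Rspo3 and Rspo4, the relatives of Rspo1, had at most 20 counts in any library and were not tested.

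Of the receptors, 13 of 18 tested rose and 3 fell, with a median of 1.77. Lrp6, a co-receptor of the beta-catenin branch, rose from 41.3 ± 6.37 to 149.6 ± 10.8 CPM, while Lrp5, its close relative, fell from 95.2 ± 19.5 to 33.1 ± 2.97 CPM (SD, n = 3). The R-spondin receptor Lgr4 rose from 56, 63 and 56 counts to 601, 538 and 722, and Lgr6 fell from 45, 50 and 59 to 2, 5 and 20 (log2 fold change -3.05, and -4.4 without deletion replicate 3). Rnf43, which removes WNT receptors from the surface and is the target of R-spondins, fell by 3.0 on the log2 scale, and Znrf3, which does the same, had a log2 fold change of -0.03 and did not pass (0.61 with no scaling factor).

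Inside the cell, 7 of 12 transduction genes rose and 2 fell (median 0.61). Ctnnb1, the gene of beta-catenin, rose 2.12-fold and Apc, part of the complex that destroys it, 3.05-fold. Csnk1a1, a kinase of the same complex, fell by 1.15 and Dvl1, which relays the receptor signal, by 2.13 on the log2 scale. With no scaling factor 10 of the 12 were higher. Of 5 antagonists tested, 3 rose and 1 fell (median 1.53), and among the risers Frzb (log2 fold change 2.42) and Sfrp1 (1.53) encode secreted proteins that bind WNTs. Kremen1, a receptor of DKK proteins, had a log2 fold change of -0.29 (edgeR adjusted p = 0.0415), but of 0.35 with no scaling factor, and it lost its call without WT replicate 1, WT replicate 2, deletion replicate 1 or deletion replicate 2 (-0.3 to -0.23). No antagonist fell in those fits.

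Of 5 genes tested that beta-catenin signalling switches on, 3 rose and 1 fell (median 0.75). Axin2, the widely used readout of the branch, rose from 29, 63 and 25 counts to 190, 227 and 155, a log2 fold change of 1.76. Tcf7 rose by 1.33. Nkd1 rose by 0.75 (edgeR adjusted p = 0.0406), but it lost its call with median-of-ratios scaling, DESeq2 and voom. It also lost its call without WT replicate 2, WT replicate 3 or deletion replicate 2. In each of those fits 2 of the 5 rose. Marker medians were 1.21 for peritubular myoid, 1.39 for endothelial, 2.23 for Sertoli and 3.19 for Leydig cells. Which cells these RNAs came from was not tested. Lef1 fell from 639, 798 and 781 counts to 52, 42 and 42, a log2 fold change of -4.58 (edgeR adjusted p = 1.38e-13). Notum and Sp5 had at most 5 counts in any library. Over the 75 genes of all these WNT lists, 48 were tested, 30 rose and 9 fell, and the median was 1.18.

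**Figure D5:**
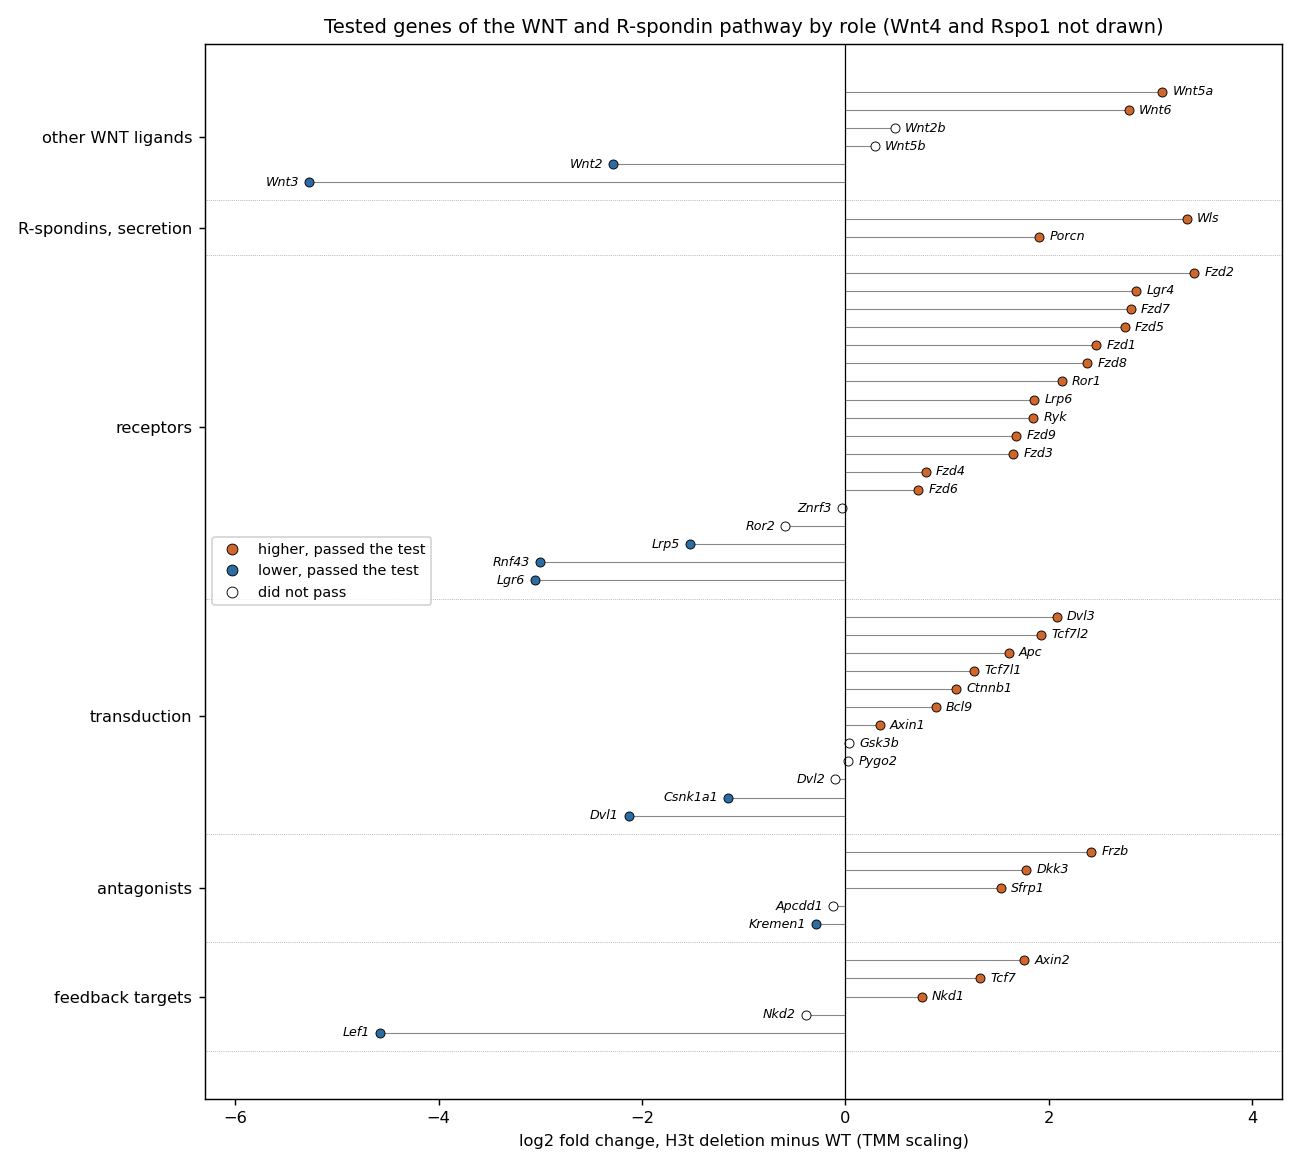
Log2 fold change of deletion minus WT for each tested gene of the WNT and R-spondin pathway, by role, coloured where the gene passed the threshold. Wnt3, Lef1, Lgr6 and Rnf43 lie far to the left while Wls, Wnt5a, Fzd2 and Lgr4 lie far to the right; Wnt4 and Rspo1 are not drawn.

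Relatives of the members in their own gene families went in both directions. Of 12 other SOX genes tested, 4 rose and 5 fell, and their median of -0.37 turned to 0.18 with upper-quartile scaling and 0.27 with none, and was -1.03 without deletion replicate 2. Sox5, Sox6 and Sox30, which germ cells make, fell from 321.4 ± 49.7, 216.1 ± 10.1 and 310.7 ± 22.2 CPM to 19.3 ± 3.19, 18.1 ± 2.93 and 3.83 ± 1.12 CPM (SD, n = 3). Sox4 and Sox12, of the SOXC group, rose 4.23-fold and 3.78-fold, near the value of Sox8.

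Of 3 other GATA genes tested, 2 rose and 1 fell, and of the 4 tested without WT replicate 3 or any 1 deletion library 2 rose and 2 fell. The median was 1.44, but -0.6 without WT replicate 3 and -1.03, -0.32 and -0.24 without deletion replicates 1, 2 and 3. Gata1, the Sertoli GATA factor, rose from 28, 25 and 29 counts to 239, 275 and 259, Gata6, a partner of Gata4 in the gonad, rose 2.71-fold, and Gata2 fell from 157, 266 and 215 counts to 28, 27 and 34. Among 6 other DMRT genes, 3 rose and 3 fell (median -1.13, and -1.88 without WT replicate 3 or -1.83 without deletion replicate 1). Dmrtb1, which acts as spermatogonia enter meiosis, fell from 358.8 ± 23.4 to 4.84 ± 1.21 CPM, and Dmrta1 rose from 22.6 ± 1.7 to 93.9 ± 1.84 CPM (SD, n = 3), a larger log2 fold change (2.05) than that of Dmrt1 (1.39). Dmrtc1a rose 2.51-fold, and its counts are less certain because of its close copy Dmrtc1b. Nr5a2, the relative of Nr5a1, had 3 to 7 counts in WT and 9 to 17 in the deletion and was not tested, and neither were Nr0b2 and Foxl1.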

How the data were processed

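RNA-seq libraries of testis cryosections, 3 WT and 3 deletion, were prepared with a SMART-Seq kit that keeps strand, per the labels' protocols. The values used are raw counts per Ensembl gene as deposited, which the authors obtained with Trim Galore, HISAT2 (GRCm38) and featureCounts, per the submitters' processing notes. Versions, annotation release and the strand setting of the counting were not given in the sources used here. Overlapping and antisense genes may therefore hold each other's reads. All 54100 genes were found in GENCODE M21, which gave 1-based coordinates and exon lengths. Promoter windows came from RefSeq (GRCm38.p6).

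Counts were fitted with edgeR 4.0.16 in R 4.3.3. After filterByExpr (minimum count 10) and TMM scaling, the deletion was set against WT by the quasi-likelihood test without covariates, and p-values were adjusted by Benjamini-Hochberg over all 17038 genes tested. Scaling factors lay between 0.794 and 0.806 for WT and between 1.21 and 1.27 for the deletion. A single count equalled 0.0904 to 0.156 CPM, and the biological coefficient of variation was 13.1%. Fold changes are the fitted ones, with their standard errors. Where a gene had 0 counts in a whole group, the bound on its fold used a floor of 3 counts over that group. Values relative to marker lists used log2 CPM with a prior count of 2, and no member was in a list. The script was tested on simulated counts in which a small part of the genes changed, as many up as down. That test does not cover a shift of most genes, as seen between these groups.

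Apart from a number in each title, the labels do not tie libraries to separate mice, so p-values reflect only how these samples vary, partly for technical reasons perhaps. Libraries of a group differed by more than sampling noise (chi-square per degree of freedom 4.58 to 6.9). The members, 10 pathway lists, 4 family lists and 11 marker lists were chosen with earlier results of these data known. Named genes were the members and, from each pathway and family list, up to 3 called genes with the highest mean CPM and up to 2 called genes against the list's median. To these were added 2 genes per marker list, H3f4, and the 4 genes most like Wnt4, Sox9 and Nr5a1. Other named genes were chosen after their values were seen. Some genes that fall under the rule are not reported here. Alternatives were median-of-ratios, upper-quartile and no scaling, no filter, a false discovery rate of 0.01, DESeq2 1.42.0, limma 3.58.1 voom, each library left out in turn, other list scores, prior counts and lengths, another measure of likeness and, added after seeing the data, a block of mouse numbers. Spatial data of the series were not used here.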

Additional observations from a re-analysis of the deposited data

How the results depend on the processing

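The numbers of genes called higher and lower over the whole table stayed within 1.5 times their value under each of the 14 alternatives tried. The log2 fold changes of the members kept their sign in every fit. The scaling sets the zero point. The median log2 fold change of the tested genes, -0.19 under TMM, became -0.36 under median-of-ratios, 0.35 under upper-quartile scaling and 0.45 when no factor was used, and the share of calls that were higher went from 45.4% to 42.3%, 55.1% and 56.6%. Under upper-quartile scaling and with no factor the log2 fold change turned for Kremen1 (0.25 and 0.35), Krt19 and Sox10 (0.02 and 0.11 each), Zbtb40 (0.22 and 0.31) and Znrf3 (0.51 and 0.61). Znrf3 ranged from -0.16 to 0.09 when a library was left out. Medians of short lists also changed sign when a library was left out, as given with the WNT ligands and the other GATA genes. Of the list counts recomputed, 337 stayed within 1.5 times and 27 moved, all of them counts of 5 or fewer.

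No paired analysis was possible because the labels give the groups no shared replicate numbers, only mouse numbers, and do not say what these mark. A fit chosen after seeing the data took libraries with neighbouring mouse numbers as a block, in 3 blocks, of which 1 held a single WT library. It called 6074 genes higher and 7584 lower, against 6542 and 7861. Dmrt1 had a log2 fold change of 1.52, the other members called in the full comparison stayed called and higher, Znrf3 was at 0.07, and Kremen1 lost its call. Depth limits Foxl2, Rspo1 and the untested ligands, which had few counts per library.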
